A study of Mus musculus with 3 samples.

Results

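The genes described here are the cytochrome P450 genes (Cyp) on a mouse whole-genome array. The rule that selects them reads the name and no measured value: a gene belongs if its name in the scanner files has the form Cyp, family number, subfamily letter and gene number, as in Cyp2j5, which leaves out Cyp51. The rule found 70 genes with 102 probes, out of 27665 genes with 41169 probes on the array. The study asked how swimming, and Chlorella in the food of swimming mice, altered gene expression in muscle of male mice. All mice were 6 weeks old, and muscle was taken after 14 days. The nonswimming group ate normal food, the swimming group ate normal food, and the third group swam and ate food with 0.5% Chlorella powder, a unicellular green alga. No genetic change is named for any group, and the sources used here give neither the strain, the muscle taken nor the swimming schedule. Total RNA of 10 mice was pooled in each group and hybridised to 1 single-colour array, so the differences below have no replicate check and no test between groups was possible.

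Cytochrome P450 enzymes are haem proteins that use oxygen and electrons from NADPH to oxidise their substrates. Members of families CYP1 to CYP4 handle drugs, plant and food compounds, fatty acids and arachidonic acid, and are most abundant in liver, with many in kidney, lung and gut. Other families each have a fixed task in making or breaking down steroid hormones, bile acids, vitamin D or retinoic acid. Skeletal muscle is not a main site of these enzymes.

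Signals are given in the array's intensity units, in the order nonswimming, swimming and swimming with Chlorella. Each was divided by the 75th percentile of its array (285.9, 295.0 and 237.8 units) before a log2 ratio was taken, so equal signals do not give a ratio of 0. A gene was represented by its brightest probe and counted as higher or lower from 2-fold, a log2 ratio of 1, where that probe was well above background on both arrays. Where it was so on 1 array only, the ratio is a bound, written "at least", taken against a floor on the dim array: the smallest signal still well above background there (6.45, 5.78 and 6.26) or the dim probe's own signal if that was higher. The value after ± is the scanner software's error of both spots, which is technical and holds no difference between mice. Signals of different probes are not comparable with each other. Precision is limited by the number of arrays.

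The markers of several other cell types differed between the arrays. All 12 skeletal muscle markers were well above background on all 3 arrays, and none differed 2-fold in either comparison. Their summed signal, in multiples of the 75th percentile, was 5590, 5090 and 6460. The 12 kidney tubule markers summed to 6.58, 41.9 and 9.89. Of the 9 kidney markers measured in both normal food groups, 9 were higher in swimming by 2-fold or more, with a median log2 ratio of 2.69. In Chlorella against normal food, 7 of 9 were lower, with a median of -2.05. Kap, a protein made in the proximal tubule, had signals of 1519, 9655 and 1800 and makes up most of the kidney sum on each array. Slc12a1 and Slc12a3, salt transporters that define the thick ascending limb and the distal tubule, were well above background on the swimming array only. The 10 adipocyte markers summed to 509, 874 and 620, with 6 of 10 higher on the swimming array and 3 of 10 lower with Chlorella. The 11 hepatocyte markers on the array summed to 23.2, 16.1 and 14.3. Of the 10 measured in each comparison, none was 2-fold higher or lower on the swimming array, with a median of -0.55. With Chlorella 1 was higher, Tat (1.29), and none lower, with a median of -0.08. Apob rose over the 3 arrays (14.09, 28.57 and 42.38). The dim marker Ttr (9.049, 6.574 and 2.989) was well above background on the nonswimming array only. The part of these cell types in the P450 results was not tested. In such pooled tissue RNA, fewer cells of a type and less RNA per cell cannot be told apart.

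Other lists also moved. Neutrophil markers summed to 16.7, 282 and 3.58, B cell markers to 2.28, 11 and 1.89, erythroid markers to 57, 164 and 44.4 and keratinocyte markers to 12.6, 6.82 and 5.41. The neutrophil sum is mostly S100a9 (3502, 61080 and 673.4) and the erythroid sum mostly Hba-a1 (15310, 43390 and 10080). Macrophage markers summed to 88.8, 122 and 49.2 and mast cell markers to 5.71, 4.99 and 2.71. The macrophage sum is mostly Lyz2 (21070, 32080 and 9495, swimming ratio 0.56). None of the 10 macrophage markers was 2-fold higher or lower on the swimming array, where their median log2 ratio was -0.11. The sums varied less for brown adipocyte (339, 377 and 426) and steroidogenic markers (28, 32.3 and 35.9). Each sum is mostly a single gene, Cox7a1 (92790, 90430 and 92800) and Fdx1 (7882, 9360 and 8415). It says little of the other markers. Endothelial (29.4, 29.4 and 33.7) and fibroblast sums (615, 480 and 492) also varied less. Single brown adipocyte markers moved far and in opposite directions. Ucp1 had signals of 243.2, 4775 and 597.6, and Zic1 of 30.66, 14.63 and 97.5. Of the 7, 2 were 2-fold higher and 1 lower on swimming, and 1 higher and 2 lower with Chlorella. Of 5 measured steroidogenic markers, 1 was higher on the swimming array.

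A large share of the family gave a signal. Of the 70 genes, 39 were well above background on all 3 arrays, 5 on 2 arrays, 6 on 1 array and 20 on none. The counts per array were 45, 47 and 41 genes, or 64.3%, 67.1% and 58.6% of the family, beside 58.3%, 60.7% and 57.2% of all genes. The 20 genes well above background on no array included all steroid hormone synthesis genes but Cyp17a1: Cyp11a1, Cyp11b2, Cyp19a1 and Cyp21a1. Also among them were Cyp2r1, a vitamin D 25-hydroxylase, Cyp8b1, an enzyme of bile acid synthesis, and Cyp2b10, a gene induced by barbiturates in liver. The rest were 9 further CYP2 genes, of which 7 belong to the Cyp2b and Cyp2c subfamilies, the CYP3 genes Cyp3a13, Cyp3a16 and Cyp3a44, and Cyp4x1.

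The first comparison asked how the family differed between swimming and nonswimming mice on normal food. Cyp2j13, Cyp2j5, Cyp4a12, Cyp4b1, Cyp2a4, Cyp1b1 and Cyp4a10 were 2-fold or more higher on the swimming array and no measured member was lower. That is 7 of 43 measured members, or 16.3%, where 5.14% of all 15662 measured genes were higher and 1.07% lower. The median log2 ratio of the measured members was 0.01, beside -0.04 for all measured genes. The difference lay in the upper part: the quartiles of the members were -0.19 and 0.70, and those of all genes -0.21 and 0.18. The other 27 members were measured on 1 of the arrays (6) or on neither (21).

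**Figure D1:**
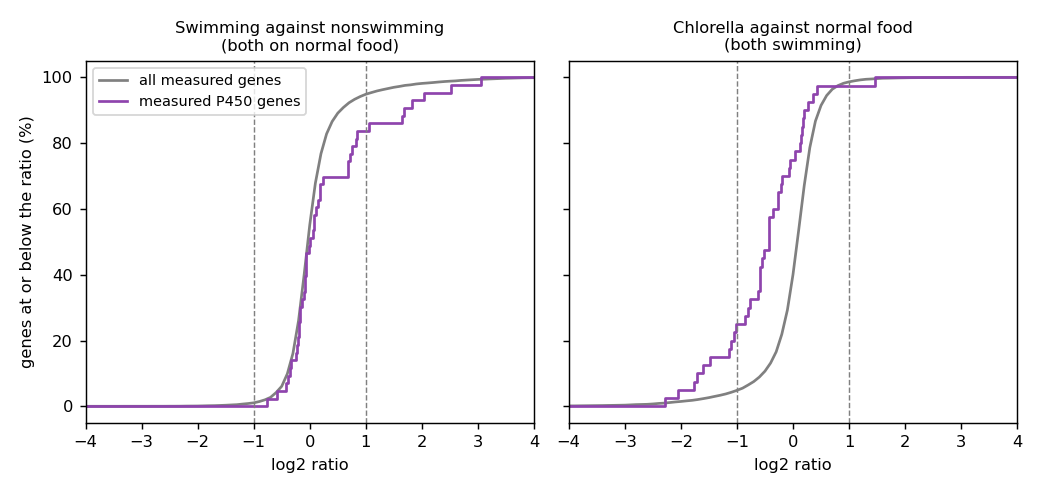
Cumulative share of genes (percent, vertical axis) at or below each log2 ratio (horizontal axis) for the measured P450 genes (purple steps) and all measured genes (grey line), for swimming against nonswimming (left) and Chlorella against normal food in swimming mice (right). Dashed lines mark 2-fold; on the left 16.3% of the members lie at or above the upper line, and on the right 25.0% lie at or below the lower one.

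Epoxygenases of the Cyp2j subfamily, which convert arachidonic acid to epoxyeicosatrienoic acids, held the largest ratios. Cyp2j13 had signals of 24.7, 212.9 and 41.03, and its log2 ratio of swimming over nonswimming was 3.06 ± 0.22 (8.36-fold). Its 2 other probes gave 28.58, 50.34 and 22.37, and 1.883, 8.395 and 1.377, so all 3 probes were highest on the swimming array, while the second had a ratio of 0.77. Cyp2j5, the Cyp2j enzyme abundant in mouse kidney, had signals of 59.36, 351.8 and 58.49 and a ratio of 2.52 ± 0.21 (5.74-fold). Its other probe gave 40.81, 251.9 and 34.89 and a ratio of 2.58. Cyp2j11 had 3.831, 28.91 and 3.696 and was well above background on the swimming array alone, at least 4.34-fold higher than on the nonswimming array. In the same cluster of genes, Cyp2j6 (136.5, 134.5 and 80.86, ratio -0.07) and Cyp2j9 (136.4, 141.9 and 109.8, ratio 0.01) lay near 0.

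The promoters of these 3 Cyp2j genes are shown because the genes lie in 1 cluster and were high on the same array. Each is the 250 bases before the gene's start in RefSeq, build GRCm38.p6, written 5′ to 3′ on the gene's strand, which is the minus strand for all 3. Capitals mark matches to 4 motifs searched on both strands: AGGTCA, the core element read by nuclear receptors; GTTAAT, part of the site read by HNF1; GCGTG, the core bound by the Ah receptor; and TATAAA, the TATA box. None of these 4 motifs overlapped in the 3 windows.
Cyp2j5, chr4:96664120-96664369: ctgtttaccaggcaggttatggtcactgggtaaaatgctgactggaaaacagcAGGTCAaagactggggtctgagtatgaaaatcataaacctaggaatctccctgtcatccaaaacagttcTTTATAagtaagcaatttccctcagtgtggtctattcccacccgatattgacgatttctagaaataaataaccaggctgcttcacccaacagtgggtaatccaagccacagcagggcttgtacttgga
Cyp2j13, chr4:96077541-96077790: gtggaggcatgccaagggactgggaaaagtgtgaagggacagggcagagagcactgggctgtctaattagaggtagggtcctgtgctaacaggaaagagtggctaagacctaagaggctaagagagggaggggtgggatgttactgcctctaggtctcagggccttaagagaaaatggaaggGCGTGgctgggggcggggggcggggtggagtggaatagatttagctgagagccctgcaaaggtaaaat
Cyp2j11, chr4:96348681-96348930: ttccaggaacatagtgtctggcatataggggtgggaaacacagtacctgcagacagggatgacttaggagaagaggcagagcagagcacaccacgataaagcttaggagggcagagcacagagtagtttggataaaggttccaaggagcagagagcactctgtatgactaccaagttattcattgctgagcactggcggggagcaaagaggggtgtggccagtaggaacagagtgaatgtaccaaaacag

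Cyp2j5 held AGGTCA at -197 and TATAAA, read on the opposite strand, at -128, counted from the gene's start. Cyp2j13 held GCGTG at -68, and Cyp2j11 none of the 4 motifs in this window. Over 27025 RefSeq promoters of this length, AGGTCA occurred in 13.8%, GTTAAT in 6.52%, GCGTG in 28.2% and TATAAA in 13%. Of the 53 members with a promoter in the table, 12 (22.6%), 4 (7.55%), 10 (18.9%) and 22 (41.5%) held them. Of the 12 members with AGGTCA, Cyp2j5 was higher on the swimming array. Cyp2b19, Cyp2c29, Cyp2c70, Cyp2f2, Cyp3a11 and Cyp3a25 were measured on both normal food arrays and were not higher. Cyp2b13, Cyp2b9, Cyp2c39, Cyp3a44 and Cyp19a1 were well above background on no array. The part of the motifs in the ratios was not tested. The motif matches describe letters and not binding.

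Among the CYP4 enzymes, which add a hydroxyl group to the end of fatty acid chains, 3 of 9 measured members were higher on the swimming array and none was lower, with a median of 0.68. Cyp4a12, the androgen-dependent arachidonic acid hydroxylase of male mouse kidney, had signals of 38.84, 164.0 and 43.65 and a ratio of 2.03 ± 0.21 (4.09-fold). Its second probe gave 12.77, 37.27 and 10.42 and a ratio of 1.5. Cyp4b1, which also acts on foreign compounds, had 596.8, 2192 and 633.9 and a ratio of 1.83 ± 0.20 (3.56-fold). Cyp4a10, a target of the fatty acid receptor PPARα, had 20.03, 42.9 and 16.09 and a ratio of 1.05 ± 0.24 (2.08-fold), which lies within its error of the threshold. Each of the 3 genes had its highest signal on the swimming array. Just below the threshold, Cyp4f18, a leukotriene hydroxylase of neutrophils, had 61.65, 113.3 and 52.14 and a ratio of 0.83 ± 0.21. Cyp4v3 had 101.4, 167.3 and 78.93 and a ratio of 0.68 ± 0.21. The remaining 4, Cyp4f13, Cyp4f14, Cyp4f15 and Cyp4f16, ranged from -0.09 to 0.23.

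**Figure D2:**
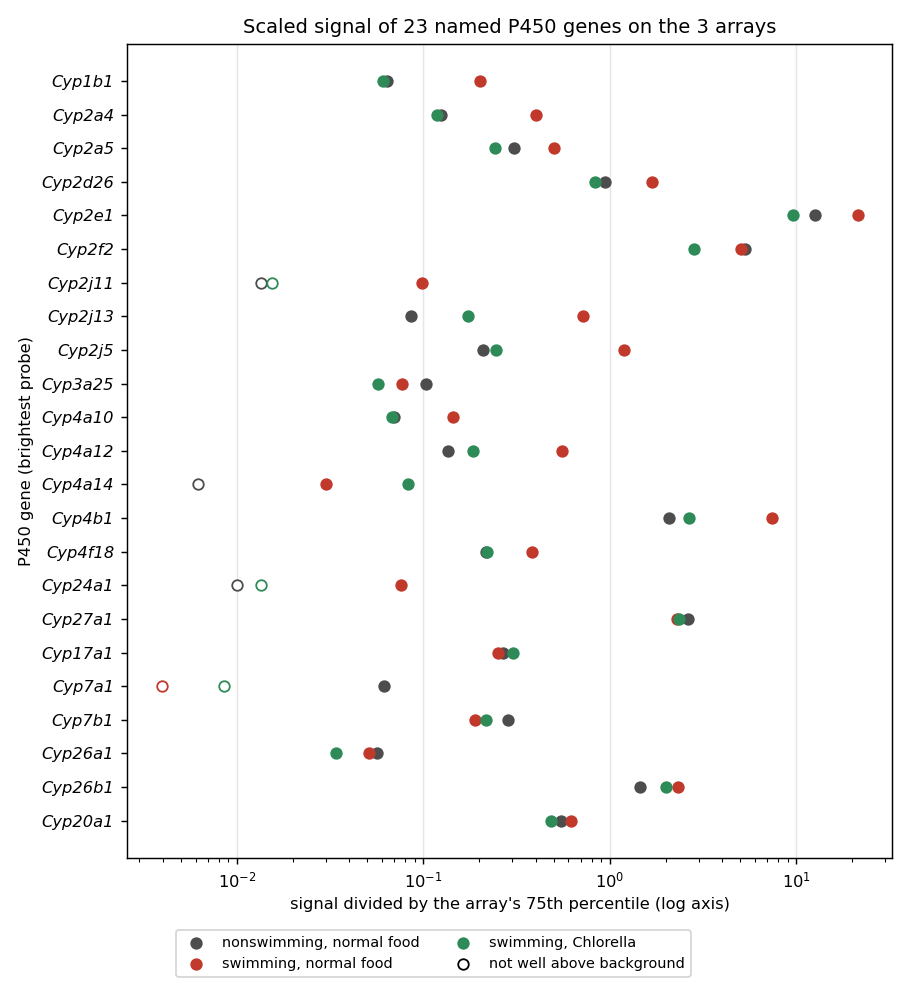
Scaled signal (horizontal axis, signal divided by the array's 75th percentile, log axis) of the 23 named P450 genes (vertical axis, grouped by role) on the nonswimming (grey), swimming (red) and swimming with Chlorella (green) arrays; each point is 1 array and open points were not well above background. For Cyp2j13, Cyp2j5, Cyp4a12 and Cyp4b1 the red point stands at least 2-fold to the right of both others; levels of different genes are not comparable.

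The CYP2 enzymes outside the Cyp2j subfamily differed less. Cyp2a4, a testosterone hydroxylase, had signals of 35.72, 118.8 and 28.01 and a ratio of 1.69 ± 0.21 (3.22-fold). Cyp2a5, a coumarin and nicotine hydroxylase, had 87.56, 148.5 and 57.42 and a ratio of 0.72 ± 0.21. Both were highest on the swimming array. These genes are near-identical copies and their probes can share targets: by the scanner files' own coordinates, for which the sources used here give no build, the brightest Cyp2a4 probe lies on chromosome 7 from 23212199 to 23212258 and overlaps the 2 Cyp2a5 probes by 38 and 20 bases. The values of Cyp2a4 and Cyp2a5 are therefore uncertain as values of 1 gene. Cyp2e1, the ethanol-oxidising P450, had 3602, 6309 and 2300 and a ratio of 0.76 ± 0.20. Cyp2d26 had 269.7, 497.8 and 197.7 and a ratio of 0.84 ± 0.20. Over the whole CYP2 group, 3 of 20 measured members were higher and none lower, with a median of -0.02.

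The likeness of the Cyp2a pair reached into the promoters, shown here. These bases lie before the gene's start, so they do not show whether the probes tell the 2 genes apart. Capitals mark the bases that differ: over 249 aligned bases, 245 were identical (98.4%) and 4 differed. Both sequences are the 250 bases before the start, on the plus strand of GRCm38.p6.
Cyp2a4, chr7:26306942-26307191: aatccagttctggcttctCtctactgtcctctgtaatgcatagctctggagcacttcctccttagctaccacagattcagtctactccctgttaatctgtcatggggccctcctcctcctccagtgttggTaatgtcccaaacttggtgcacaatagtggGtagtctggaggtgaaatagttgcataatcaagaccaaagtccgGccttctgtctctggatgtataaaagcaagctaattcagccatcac
Cyp2a5, chr7:26835089-26835338: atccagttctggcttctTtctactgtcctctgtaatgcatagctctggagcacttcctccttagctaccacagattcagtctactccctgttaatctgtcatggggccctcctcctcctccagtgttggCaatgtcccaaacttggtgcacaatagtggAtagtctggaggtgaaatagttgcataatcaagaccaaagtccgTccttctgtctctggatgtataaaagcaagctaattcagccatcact

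Cyp1b1, a CYP1 enzyme found in many tissues outside the liver that hydroxylates oestrogens and polycyclic hydrocarbons, had signals of 18.26, 59.27 and 14.46 and a ratio of 1.65 ± 0.25 (3.15-fold). Its second probe was not well above background on any array. Cyp1a1, the classical target of the Ah receptor, had 26.96, 22.18 and 22.83 (-0.33 ± 0.24), and Cyp1a2, its liver relative, 16.13, 9.792 and 4.759 (-0.76 ± 0.36). The 3 genes did not move together. Of the CYP3 enzymes, the main drug-oxidising P450s of liver and gut, 3 were measured and ranged from -0.42 to -0.01, with Cyp3a25 (29.44, 22.64 and 13.51) the farthest from 0.

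The P450s with a fixed task were mostly near 0. Cyp24a1, which breaks down active vitamin D, had signals of 2.868, 22.52 and 3.195 and was well above background on the swimming array alone, at least 3.38-fold above the nonswimming array. Cyp7a1, the rate-limiting enzyme of bile acid synthesis, went the other way: its brightest probe gave 17.68, 1.164 and 2.034 and was well above background on the nonswimming array alone, at least 3.16-fold above the swimming array. The second Cyp7a1 probe was at 1.832, 1.931 and 1.689 and not well above background on any array. With Cyp2j11, 2 of the 6 members measured on 1 array only were higher by a bound and 1 was lower, where 24.6% and 15.2% of all such genes were. Cyp7b1, an oxysterol hydroxylase, had 81.45, 55.89 and 51.56 (-0.59 ± 0.21), and Cyp26b1, which breaks down retinoic acid, 414.5, 687.6 and 475.4 (0.69 ± 0.20). Ratios of the others were -0.19 for Cyp27a1, the sterol 27-hydroxylase of mitochondria, -0.14 for Cyp26a1, 0.18 for Cyp20a1, whose substrate is not known, and -0.09 for Cyp17a1, the steroid 17-hydroxylase.

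The count rests in part on dim probes and on the background correction. With normexp correction, which here adds 50 units to every signal, 4 of the 7 members stayed at 2-fold (Cyp2j13, Cyp2j5, Cyp4a12 and Cyp4b1). Requiring a signal of 50 on both arrays left Cyp2j5 and Cyp4b1. Only 4 of the 7 have a value in the authors' deposited table: Cyp4b1 was higher there, at 1.84, while Cyp2j5 (0.96), Cyp2a4 (0.63) and Cyp4a12 (0.11) fell short of 2-fold. These 3 have several probes, and the table's values for such genes mostly differ from the scanner files. Among its values, 3.23% of 31 measured members were higher, below the 4.3% of all its genes.

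**Figure D3:**
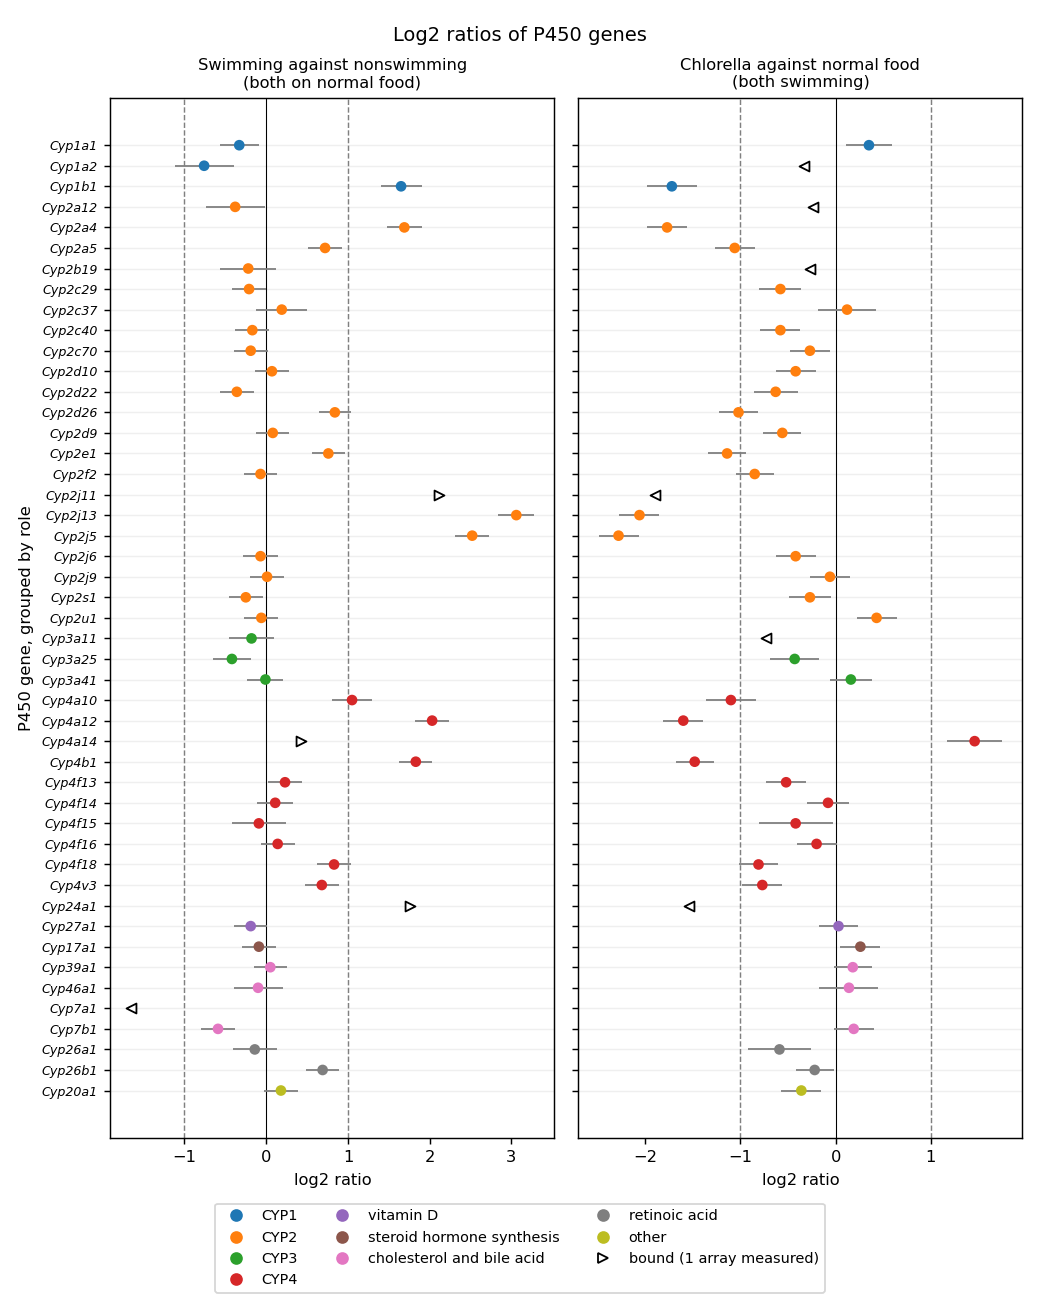
Log2 ratio (horizontal axes) of each P450 gene measured in a comparison (vertical axis, coloured by role), swimming against nonswimming on the left and Chlorella against normal food in swimming mice on the right; bars are the scanner software's technical error, triangles are bounds for genes measured on 1 array, and dashed lines mark 2-fold. On the left 7 points lie beyond the upper line and none beyond the lower; on the right 10 lie beyond the lower line and Cyp4a14 alone beyond the upper.

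The second comparison asked how Chlorella in the food altered the family in swimming mice. Cyp2j5, Cyp2j13, Cyp2a4, Cyp1b1, Cyp4a12, Cyp4b1, Cyp2e1, Cyp4a10, Cyp2a5 and Cyp2d26 were 2-fold or more lower on the Chlorella array, and Cyp4a14 was higher. These were 10 of 40 measured members, or 25.0%, where 4.86% of all 15508 measured genes were lower. The single higher member is 2.5% of 40, where 1.37% of all genes were higher. The median log2 ratio of the members was -0.43, beside 0.08 for all measured genes, and 30 of the 40 lay below 0. Of the other 30 members, 8 were measured on 1 of the arrays and 22 on neither. The swimming array is shared with the first comparison, so a value that was high on it raises the one ratio and lowers the other.

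In the Cyp2j subfamily the log2 ratio of Chlorella over normal food was -2.28 ± 0.21 for Cyp2j5 (4.85-fold lower) and -2.06 ± 0.21 for Cyp2j13 (4.18-fold lower). Cyp2j11 was at least 3.72-fold lower. Cyp2j6 had a ratio of -0.42 and Cyp2j9 one of -0.06. The Chlorella signal of Cyp2j5 was close to its nonswimming signal, while that of the brightest Cyp2j13 probe lay between those of both other arrays. The second measured Cyp2j13 probe (28.58, 50.34 and 22.37) was lowest on the Chlorella array, with a ratio of -0.86 to normal food, short of 2-fold.

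The CYP4 group split. Cyp4a12 (-1.60 ± 0.21, 3.03-fold lower), Cyp4b1 (-1.48 ± 0.20, 2.79-fold) and Cyp4a10 (-1.10 ± 0.26, 2.15-fold) were lower. Cyp4a14, like Cyp4a10 a gene induced through PPARα in liver, had signals of 1.76, 8.911 and 19.72 and was 2.75-fold higher with Chlorella (1.46 ± 0.29). Of the members past 2-fold it was the only one whose signal was highest on the Chlorella array. All 3 of its values were dim, and it was not well above background on the nonswimming array. Cyp4f18 (-0.81 ± 0.21) and Cyp4v3 (-0.77 ± 0.21) lay just inside the threshold. Of 10 measured CYP4 members, 3 were lower and 1 higher, with a median of -0.64.

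Of the 18 measured CYP2 members, 6 were lower and none higher, with a median of -0.58. Beside the Cyp2j pair these were Cyp2a4 (-1.77 ± 0.21, 3.42-fold), Cyp2e1 (-1.14 ± 0.20, 2.21-fold), Cyp2a5 (-1.06 ± 0.21, 2.09-fold) and Cyp2d26 (-1.02 ± 0.20, 2.03-fold). The last 3 lie within their error of the threshold. Cyp2f2, the naphthalene-oxidising P450 of airway club cells, had signals of 1519, 1495 and 669.8 and a ratio of -0.85 ± 0.20. It differed from the genes above in that its swimming and nonswimming signals were alike (-0.07 ± 0.20). The liver P450 Cyp2c29 had 49.44, 44.09 and 23.78 and ratios of -0.21 and -0.58 in the 2 comparisons. Cyp2u1, at 52.66, 52.1 and 56.76, had the highest ratio with Chlorella of the 18 measured CYP2 members, 0.43. Cyp2c44, well above background on the Chlorella array only, was at least 1.48-fold higher there than on normal food with swimming.

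Of the other roles, Cyp1b1 was 3.30-fold lower (-1.72 ± 0.26) and Cyp1a1 had a ratio of 0.35 ± 0.24. Cyp24a1 was at least 2.90-fold lower with Chlorella. With Cyp2j11, 2 of the 8 members measured on 1 array only were lower by a bound, where 26.0% of all such genes were, and none was higher, where 10.4% were. The 3 measured genes of the cholesterol and bile acid group, Cyp7b1, Cyp39a1 and Cyp46a1, lay between 0.14 and 0.19. The retinoic acid genes had ratios of -0.22 (Cyp26b1) and -0.59 (Cyp26a1), Cyp20a1 one of -0.36, Cyp3a25 one of -0.43, Cyp27a1 one of 0.03 and Cyp17a1 one of 0.26. No member of these families other than Cyp1b1 and Cyp24a1 reached 2-fold.

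All 7 genes higher on the swimming array were among the 10 lower with Chlorella, as a gene high on the shared array alone would be. The Chlorella array set directly against the nonswimming array gave log2 ratios between -0.08 and 1.0 for the 7 genes, and between -0.38 and 1.0 for the 10. The highest was that of the brightest Cyp2j13 probe. The second measured Cyp2j13 probe was not higher on the Chlorella array than on the nonswimming array (log2 of the scaled signal -3.41 and -3.32). The signals of Cyp1b1, Cyp2a4, Cyp2j5 and Cyp4a10 on those 2 arrays were thus within a log2 ratio of 0.24 of each other.

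Here too the count depended on the setting. With normexp correction 4 of the 10 stayed lower (Cyp2j5, Cyp2j13, Cyp2e1 and Cyp4b1) and Cyp4a14 was at 0.48. In the authors' deposited table, where 7 of the 10 have a value, 3 were lower (Cyp2d26, Cyp2e1 and Cyp4b1). Among its values, 9.68% of 31 measured members were lower, beside 4.62% of all its genes.

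Many P450 genes lie in tandem clusters, and the differences followed some clusters and not others. Members were grouped where neighbours in RefSeq order lie within 1 Mb. The Cyp4x, Cyp4a and Cyp4b cluster on chromosome 4 had 3 of 3 measured members higher on the swimming array, from 1.05 to 2.03. With Chlorella 3 of its 4 measured members were lower and 1 was higher, Cyp4a14, which lies between Cyp4a12 and Cyp4a10. The Cyp2j cluster, also on chromosome 4, had 2 of 4 measured members higher, 1 more by a bound, and the other two near 0. The cluster of Cyp2a, Cyp2b, Cyp2f, Cyp2g and Cyp2s genes on chromosome 7 had 1 of 6 measured members higher, and with Chlorella 2 of 4 lower. In the Cyp2d cluster on chromosome 15 none of 4 was higher and 1 of 4 was lower with Chlorella. None of the measured members passed 2-fold in either comparison in the Cyp2c cluster on chromosome 19 (4 of 10 members measured), the Cyp3a cluster on chromosome 5 (3 of 5 on normal food, 2 with Chlorella), the Cyp4f cluster on chromosome 17 (4 of 4) or the cluster of Cyp1a genes and Cyp11a1 on chromosome 9 (2 of 3, and 1 with Chlorella).

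**Figure D4:**
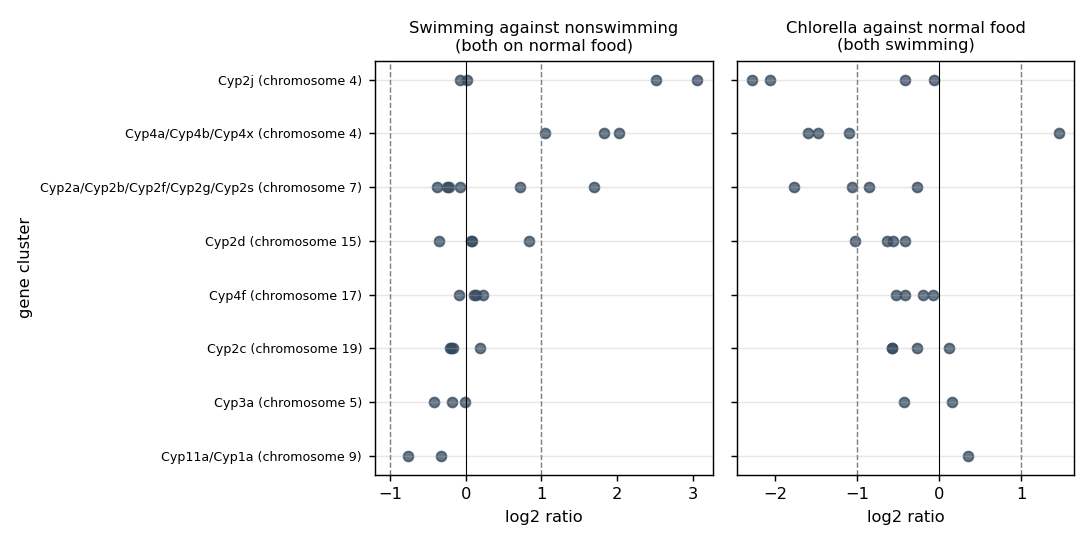
Log2 ratio (horizontal axes) of each measured P450 gene in 8 chromosome clusters (vertical axis), swimming against nonswimming on the left and Chlorella against normal food on the right; each point is 1 gene and dashed lines mark 2-fold. On the left all 3 points of the Cyp4a, Cyp4b and Cyp4x cluster and 2 of 4 Cyp2j points lie beyond the upper line, while the Cyp2c, Cyp3a and Cyp4f points stay inside both lines in both panels.

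Members with several measured probes showed how far 1 probe stands for a gene. In swimming against nonswimming, 4 of 10 such genes had probes of opposite sign (Cyp2d10, Cyp2d22, Cyp2d9 and Cyp39a1). Those of Cyp2d9 (0.08 and -0.0) and Cyp39a1 (0.05 and -0.03) all lay near 0 and hardly differed. Over the 10 genes the median gap was 0.29 and the largest 2.38 on the log2 scale. The largest was that of Cyp2d10, whose brightest probe gave 117.4, 127.4 and 76.66 and whose other probe gave 54.9, 11.48 and 8.543. In Chlorella against normal food 1 of 9 had opposite signs, Cyp2d22, where 1 of 3 probes gave 9.236, 13.33 and 23.85 and a ratio of 1.15 while the brightest had -0.63. None of the genes past 2-fold had measured probes of opposite sign.

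Genes that supply, control or follow the P450s were read from lists of known function. Of 11 measured genes of electron supply and haem, 1 was higher on the swimming array and 1 lower with Chlorella, in both cases Alas2, the haem synthesis enzyme of red cell precursors (751, 2135 and 413.2, ratios 1.46 and -2.06). Por, the reductase that feeds microsomal P450s, had 4723, 4667 and 3065 and ratios of -0.06 and -0.30. Of 19 measured receptors that control P450 genes, Vdr, the vitamin D receptor (32.6, 103.3 and 31.85, ratios 1.62 and -1.39), and Nr1h4, the bile acid receptor FXR (18.17, 52.47 and 20.74, ratios 1.49 and -1.03), were higher on the swimming array and lower with Chlorella. The receptor list had a median of -0.02 on swimming, close to the -0.04 of all genes.

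Of 24 measured genes of conjugation and hydrolysis, 5 were higher on the swimming array and 5 lower with Chlorella, with medians of 0.37 and -0.43. The farthest were the sulfotransferases Sult1c2 (15.39, 197.6 and 20.68, ratios 3.64 and -2.95) and Sult1d1 (3.22 and -2.53) and the glutathione transferase Gsta1 (2.41 and -2.22). In arachidonic acid handling 4 of 12 were higher on the swimming array and 6 of 11 lower with Chlorella, with medians of 0.42 and -1.26. Alox12, the 12-lipoxygenase of platelets, had 68.98, 211.0 and 58.09 (1.57 and -1.55), Ptges, a prostaglandin E synthase, had ratios of 1.46 and -1.36, and Tbxas1, the thromboxane synthase, was 0.51 on swimming and -1.72 with Chlorella. Tbxas1 is itself a P450 enzyme whose name is outside the rule.

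In steroid and vitamin D handling 3 of 13 were higher on the swimming array and 2 of 13 lower with Chlorella. Lrp2 and Cubn, the receptors that take up filtered vitamin D binding protein in the kidney tubule, had swimming ratios of 2.23 and 1.99, and Lrp2 is also one of the kidney markers. Akr1c18, which inactivates progesterone, had 48.07, 80.62 and 7.367 and ratios of 0.70 and -3.14. Among 9 measured retinoid genes 1, the plasma retinol carrier Rbp4 (2700, 6111 and 2470), was higher on the swimming array (1.13). None was counted as lower with Chlorella, where Rbp4 lay at the threshold with a ratio of -1.0.

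**Figure D5:**
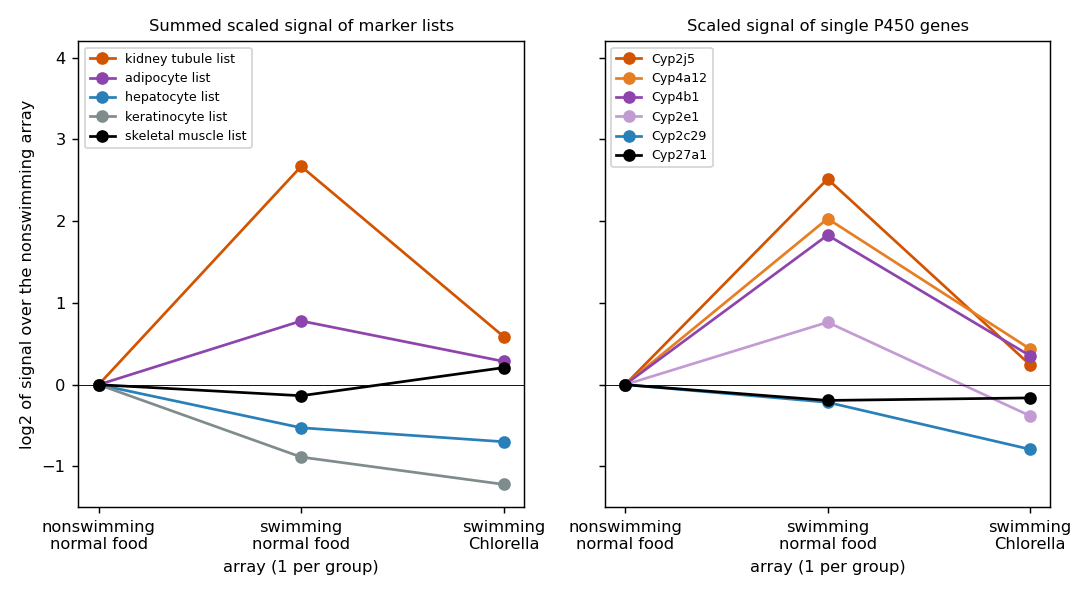
Log2 of the scaled signal over its value on the nonswimming array (vertical axis) on the 3 arrays (horizontal axis, 1 per group), for summed marker lists on the left and single P450 genes on the right; lines join the values of 1 list or gene. The scaled sum of the kidney tubule list, mostly Kap, goes from 6.58 to 41.9 and 9.89. The scaled signal of Cyp2j5 goes from 0.208 to 1.19 and 0.246. The skeletal muscle list and Cyp27a1 stay close to 0.

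Markers of neutrophils, B cells, erythroid cells, kidney tubule and adipocytes were high on the same array as these P450 genes. Neutrophil markers had median log2 ratios of 3.71 on swimming and -6.7 with Chlorella, B cell markers 3.34 and -3.66, and erythroid markers 3.44 and -2.06. Kidney tubule markers had a median log2 ratio of 2.69 on swimming and -2.05 with Chlorella. Cyp2j5, Cyp2j13 and Cyp4a12, whose main sites of expression include kidney, had 2.52, 3.06 and 2.03, and -2.28, -2.06 and -1.60. These genes were picked after their values were seen. Of the same subfamily as Cyp4a12, Cyp4a10 had 1.05 and -1.10, and Cyp4a14 had 1.46 with Chlorella. The part of kidney cells in these values was not tested. Adipocyte markers had medians of 1.11 and -0.97. Hepatocyte markers had medians of -0.55 and -0.08, and the 4 measured Cyp2c genes, a subfamily abundant in liver, had swimming ratios of -0.21 (Cyp2c29), -0.17 (Cyp2c40), -0.19 (Cyp2c70) and 0.19 (Cyp2c37) and Chlorella ratios of -0.58, -0.58, -0.27 and 0.12. Cyp2e1 and Cyp2d26, also abundant in liver, were above 0 on swimming (0.76 and 0.84). With 1 array per group, the condition and the makeup of the pooled sample cannot be told apart.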

How the data were processed

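Per the labels' protocols, total muscle RNA pooled per group was labelled with Cy3 for 1 single-colour array. The file headers give 1 slide and 1 scan for all 3. The deposited scanner files hold intensity values (processed signal, background-subtracted) which, per the submitters' processing notes, were made with Agilent Feature Extraction 9.5. The authors' value table holds deposited log2 values of 13683 spots, with medians of 0.008, -0.005 and 0.011; the value each row was centred on is unknown. Its differences matched the scanner files within 0.01 for 99.6% of genes with 1 spot, but for 18.3% and 18.6% of rows of genes with several spots.

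Control and flagged spots were left out. The processed signal was divided by the 75th percentile of its array and taken to log2 (Python 3.11.15, pandas 2.3.3). The normexp correction used R 4.3.3 with limma 3.58.1 and an offset of 50 units added to every signal. Quantile normalization was done in Python. Of the 102 member probes, 90 were found in a RefSeq table by accession and 12 by symbol; Cyp2c44, Cyp3a41 and Cyp4a12 are Cyp2c23, Cyp3a41a and Cyp4a12a there. Members and lists were chosen with earlier results of these data known. Named members were those at or beyond 2-fold, by ratio or bound, those with a log2 ratio of 0.8 to 1.2 in size, and the farthest of each role; other members are named for context, after their values were seen. Pathway genes named were up to 3 per list past 2-fold, with Por added. Steps were tested on simulated data. Of 8 alternative settings, 1 was chosen after seeing the data. A result withheld for evaluation is absent.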

Additional observations from a re-analysis of the deposited data

How the results depend on the processing

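The counts of members depended on the setting. For swimming against nonswimming, 7 members were higher, against 4 with normexp, 11 with no filter on dim probes, 2 with the stricter filter, 1 in the authors' value table and 1 in its genes with 1 spot. The members' share was above that of all genes in the first 3 of these settings (9.3% beside 2.46%, 15.7% beside 7.61%, 8.7% beside 2.72%) and below it in both from the authors' table (3.23% beside 4.3%, 4.55% beside 5.61%). No member was lower, against 5 with no filter, 1 with the mean over probes and 1 in the authors' table. The median of 0.01 was -0.04 with quantile normalization, -0.14 with median centring, -0.01 with normexp, -0.09 with no filter and -0.02 in the authors' genes with 1 spot. For Chlorella against normal food, 1 member was higher, against 6 with no filter and 0 with normexp, with the stricter filter and in the authors' genes with 1 spot. There 10 were lower, against 15 with no filter, 4 with normexp, 5 with the stricter filter, 3 in the authors' table and 3 in its genes with 1 spot, and the median of -0.43 was -0.12 with normexp. The filters change which genes enter. The normexp setting adds 50 units to every signal, which draws the ratios of dim probes towards 0. How much of its change comes from this offset was not tested. For the authors' table the cause was not tested either. In the authors' table Cyp2j5 had ratios of 0.96 and -0.96 and Cyp4a12 of 0.11 and -0.11, and both hold its lowest value, -6.64, on an array. Cyp4b1 stayed past 2-fold in all 8 settings that gave it a value (1.68 to 1.89, and -1.56 to -1.35), while Cyp4a10 fell short with quantile normalization (0.89 and -0.97), median centring (0.90 and -0.97) and normexp (0.35 and -0.18).

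Over all genes, the median shifted by -0.15 and 0.13 with median centring, and by -0.10 and 0.12 with no filter. The share of higher among all genes past 2-fold was 82.8% and 21.9% in the 2 comparisons, 70.9% and 32.8% with median centring and 62.6% and 38.2% with no filter. Of 271 further values of named members, 34 moved. No ratio past 2-fold changed sign, but with normexp and Chlorella those of Cyp26a1 (-0.59 to 0.10), Cyp3a25 (-0.43 to 0.07) and Cyp27a1 (0.03 to -0.01) did. Of 640 counts of listed genes 90 moved. No paired analysis was possible because each group has 1 array. Signals near background limit Cyp4a14, Cyp7a1, Cyp24a1 and Cyp2j11.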

Other observations

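Some P450 genes of the mouse are outside the naming rule because the array's design gave them clone names, and RefSeq names them through the accession. Cyp4a31, of the same subfamily as Cyp4a12 and Cyp4a10, had signals of 10.41, 44.4 and 10.9 on the nonswimming, swimming and Chlorella arrays, with log2 ratios of 2.05 for swimming against nonswimming and -1.71 for Chlorella against normal food. Its second probe was not well above background on any array. Cyp4f39, a fatty acid hydroxylase of skin ceramide synthesis, had 229.8, 87.45 and 130.9 and ratios of -1.44 and 0.89, the opposite direction. Keratinocyte markers were lower on the swimming array too, with 7 of 8 measured ones at least 2-fold lower. With Chlorella, 4 keratinocyte markers were measured, with a median of -0.42, and none was 2-fold higher or lower. A further 1 was higher by a bound. The part of keratinocytes in the Cyp4f39 values was not tested. Cyp2d12 had ratios of 0.25 and -0.62. Cyp51, the sterol demethylase of cholesterol synthesis that the rule leaves out, had 3 probes with ratios from 0.21 to 0.50 and from -0.69 to -0.34.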
